A study of Homo sapiens with 6 samples.

Results

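The unfolded protein response and its ATF4 branch were followed across 41 genes in U937, a human monocytic cell line in long use. The genes were listed by symbol and found in the table by their Ensembl identifiers. An arm of the endoplasmic reticulum (ER) held 20 members, which are chaperones, stress sensors with XBP1, and genes of ER-associated degradation. The ATF4 arm held 21 members, which are stress regulators, enzymes of serine, one-carbon and asparagine metabolism, amino acid transporters and aminoacyl-tRNA synthetases. Of the 41 genes, 40 were found in the table of 18798 genes and 39 were among the 14797 with enough counts to be tested. NUPR1 was not analysed here, and ASNS had too few counts. The RNA-seq counts came from 3 Control lines, which carried control plasmids, and 3 ΔNSPs lines, each an independent clone depleted of the neutrophil serine proteases CTSG, ELANE and PRTN3 together. All 6 lines were transduced and selected with geneticin, so the Control lines also carried plasmids and received the drug. Each ΔNSPs library is 1 clone, and its differences from the other clones include those between clones. The labels list no treatment that stresses the ER, so the levels below are those of growing cells.

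Proteins that enter the secretory pathway fold in the ER with the help of chaperones such as BiP, the product of HSPA5. When misfolded proteins accumulate, the sensors IRE1 (ERN1), ATF6 and PERK (EIF2AK3) respond. IRE1 splices the XBP1 message into the form that encodes an active transcription factor, ATF6 is cut to release another, and PERK phosphorylates the initiation factor eIF2α. That phosphorylation lowers general translation and favours translation of ATF4, which activates genes of amino acid supply and stress. Other kinases reach ATF4 through the same phosphorylation during amino acid shortage or viral infection. Myeloid granule proteases are made in the ER before storage. Counts per gene measure neither XBP1 splicing, nor ATF4 translation, nor phosphorylation.

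The promoters of both arms carry known response elements. Stretches of 300 bases around annotated start sites (250 before and 50 after; RefSeq, GRCh38.p14) were found for 37 of the 41 members, some with several start sites, and both strands were searched. The ER stress response element was searched as CCAAT and CCACG with any 9 bases between them. It was present in the windows of 6 of 20 ER members (HSPA5, HSP90B1, CALR, PDIA6, XBP1 and CRELD2) and of 0 of 17 ATF4 members, against 0.0769% of all 35116 windows. Its variant ERSE-II, searched as ATTGG, any base and CCACG, was present for SDF2L1, HERPUD1 and HYOU1, against 0.0541% of windows. The core of the XBP1 element, TGACGTGG, was present for HYOU1, where it overlapped an ERSE-II match, against 0.729% of windows. The element bound by ATF4 with C/EBP partners, searched as TGATGNAA, was present for 6 of 17 ATF4 members (ASNS, CHAC1, CEBPG, SLC3A2, AARS and GARS) and for HERPUD1, against 3.62% of windows. A member was counted if any of its windows matched, whereas the shares are of single windows, so the units differ. The SLC3A2 match begins 37 bases after the start site, in 1 of its 3 windows. Such a match describes the letters and shows no binding.

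The next 3 sequences are the 250 bases before the start site, 5′ to 3′ on the gene's strand, of ER members whose matches to the same element, in capitals, went with different values below. They lie at chr9:125241344-125241593 (HSPA5, minus strand), chr2:10812786-10813035 (PDIA6, the second of its 2 start sites, minus strand) and chr22:28800570-28800819 (XBP1, minus strand). The match began 66, 86 and 52 bases before the start site, respectively.
HSPA5: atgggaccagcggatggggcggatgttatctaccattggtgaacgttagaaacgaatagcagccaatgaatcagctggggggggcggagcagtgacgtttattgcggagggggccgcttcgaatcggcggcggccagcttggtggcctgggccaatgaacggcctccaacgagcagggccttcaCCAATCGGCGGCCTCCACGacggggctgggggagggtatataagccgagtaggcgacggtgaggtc
PDIA6: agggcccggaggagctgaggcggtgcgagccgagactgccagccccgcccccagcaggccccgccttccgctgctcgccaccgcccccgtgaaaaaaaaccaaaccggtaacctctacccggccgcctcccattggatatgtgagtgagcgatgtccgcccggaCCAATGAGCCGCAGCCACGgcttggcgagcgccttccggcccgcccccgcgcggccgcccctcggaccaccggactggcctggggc
XBP1: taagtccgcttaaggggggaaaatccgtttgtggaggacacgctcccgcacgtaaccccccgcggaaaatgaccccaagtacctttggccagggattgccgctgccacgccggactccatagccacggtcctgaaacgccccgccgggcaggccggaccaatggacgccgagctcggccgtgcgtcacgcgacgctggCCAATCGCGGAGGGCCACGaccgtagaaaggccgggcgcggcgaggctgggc

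HERPUD1 is shown because its stretch (chr16:56931892-56932141, plus strand) held elements of both arms. The ATF4 element lies 176 bases and ERSE-II 117 bases before the start, both in capitals.
HERPUD1: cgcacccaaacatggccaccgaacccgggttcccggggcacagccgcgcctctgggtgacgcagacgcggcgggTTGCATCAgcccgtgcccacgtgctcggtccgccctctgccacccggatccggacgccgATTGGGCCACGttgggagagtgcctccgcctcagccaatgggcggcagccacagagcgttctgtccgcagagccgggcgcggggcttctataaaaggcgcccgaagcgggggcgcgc

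ASNS (chr7:97872409-97872658, minus strand) and CHAC1 (chr15:40953221-40953470, plus strand) are shown because both held the ATF4 element, in capitals, and both were among the least counted members. The element begins 68 bases before the start in ASNS and 209 bases before it in CHAC1.
ASNS: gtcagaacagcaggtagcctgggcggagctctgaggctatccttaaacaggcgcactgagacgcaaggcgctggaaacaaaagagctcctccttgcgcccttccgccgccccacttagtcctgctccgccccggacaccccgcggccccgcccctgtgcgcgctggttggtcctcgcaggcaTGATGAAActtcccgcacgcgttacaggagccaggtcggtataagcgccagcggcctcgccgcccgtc
CHAC1: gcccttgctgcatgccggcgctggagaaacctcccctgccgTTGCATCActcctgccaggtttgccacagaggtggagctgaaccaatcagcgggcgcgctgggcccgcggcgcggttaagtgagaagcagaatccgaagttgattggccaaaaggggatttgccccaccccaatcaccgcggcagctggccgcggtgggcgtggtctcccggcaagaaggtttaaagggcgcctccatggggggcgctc

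Library totals ran from 11476619 to 13782854 counts, and 3 counts correspond to 0.214 to 0.260 CPM, the level scale used below (counts relative to the TMM-scaled library total), for counting error only. CTSG had 1897, 2477 and 2756 CPM in the Control lines, in the order of their numbers, and 136, 111 and 45.3 CPM in the clones (edgeR adjusted p = 0.0215). ELANE was at 971 to 1327 CPM against 1.89 to 41.9 CPM, and PRTN3 at 147 to 539 CPM against 0.857 to 63.3 CPM (edgeR adjusted p = 0.145 and 0.217). All 10 monocytic markers examined were present, with a summed level of 1548 to 1719 CPM in Control and 1366 to 2286 CPM in ΔNSPs. Of these, 3 (CSF1R, TYROBP and FCER1G) had an edgeR unadjusted p under 0.05, with higher means in ΔNSPs. In each of the 3, clone 1 lay within the Control range and clones 2 and 3 were above it. CSF1R had only 5 to 56 counts a library. The summed markers of T cells (2 of 5 present) and epithelial cells (3 of 5) were at 1.29 CPM or lower in every library. Those of B cells (4 of 5) were at 27.1 to 38.1 CPM against 28.1 to 32.1 CPM, with CD79A higher (log2 fold change 0.70) and PAX5 lower (-1.31) at an unadjusted p under 0.05. Those of erythroid cells (4 of 5) were at 77.5 to 136 CPM against 89.7 to 118 CPM. Nearly all of that sum was HBB, at 74.0 to 133 CPM against 84.7 to 114 CPM. Those of fibroblasts (5 of 5) were at 6.67 to 6.90 CPM against 0.759 to 10.3 CPM. The part of these marker sets in the results was not tested.

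Both arms had a median difference near 0 between ΔNSPs and Control, and single members differed in both directions. All 3 clones lay below all Control lines in PDIA6, EDEM1 and SLC7A11, whereas DDIT3, PPP1R15A, SYVN1, DERL2, TRIB3, SLC7A5 and SLC3A2 were higher in all 3 clones. In edgeR's quasi-likelihood test 0 of 39 members passed an adjusted p of 0.05, where 0.0203% of all genes did (3 genes; 0.00676% higher and 0.0135% lower). An unadjusted p under 0.05 was found for 6 higher and 3 lower members, 23.1% of them against 17.8% of all genes (9.23% higher and 8.6% lower). DESeq2 gave adjusted p-values for 38 members and called 2 higher (PPP1R15A and DDIT3) and 3 lower (SLC7A11, EDEM1 and PDIA6), 13.2% against 3.98% of all genes (1.91% higher and 2.07% lower). Limma voom called 0. Groups did not overlap for 10 of 39 members (25.6%), near the 23.9% of all genes. The median log2 fold change of the members, ΔNSPs minus Control, was 0.029, against 0.0023 over all genes, and the median size was 0.22 in both.

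**Figure D1:**
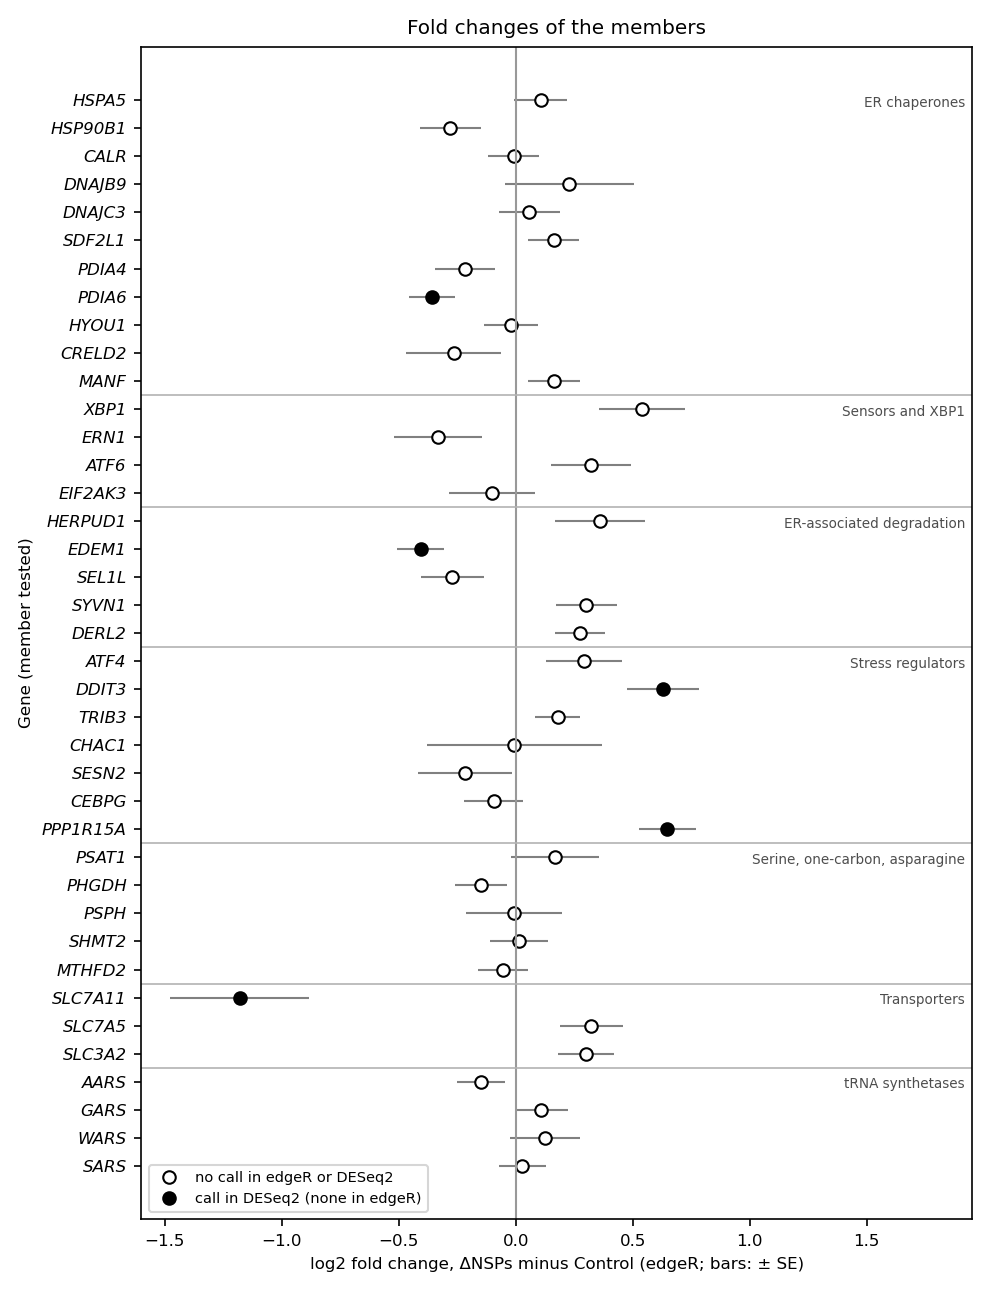
Log2 fold changes of the 39 tested members (x axis, ΔNSPs minus Control, edgeR, bars ± SE) by gene and role. Filled points are the 5 members called by DESeq2, and none was called by edgeR; SLC7A11 is the lowest at -1.18 and PPP1R15A the highest at 0.65.

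The ER chaperones and folding enzymes among the members differed little between the groups, except PDIA6. Of the folding genes outside the members, P4HB and PDIA5 were lower by more and are given further below. TXNDC5 and ERO1B were also lower in every clone (log2 fold change -0.78 and -0.60). DNAJB11 was higher in every clone (log2 fold change 0.48, edgeR unadjusted p = 0.00733). CANX, PDIA3 and PPIB had log2 fold changes of -0.09, 0.15 and 0.24. HSPA5, the main ER chaperone of the Hsp70 family and a standard readout of the response, was at 556, 677 and 637 CPM in Control and at 698, 702 and 613 CPM in ΔNSPs, here and below in the order of the replicate numbers. The groups overlapped, with Control replicate 1 the lowest library and clone 3 below both other Control lines. The log2 fold change was 0.11 (SE 0.11; edgeR adjusted p = 0.644). HSPA5 (ENSG00000044574) lies at chr9:125234853-125241330, minus strand, in GRCh38.

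PDIA6, a protein disulfide isomerase that limits IRE1 signalling, was at 777, 861 and 888 CPM in the Control lines and at 659, 685 and 627 CPM in the clones. Every clone was below every Control line (657 ± 28.8 against 842 ± 58.2 CPM, SD, n = 3). The log2 fold change was -0.36 (SE 0.10; edgeR adjusted p = 0.178, DESeq2 adjusted p = 0.0445), and it stayed between -0.41 and -0.32 when any library was left out. PDIA6 (ENSG00000143870) spans chr2:10783391-10837977, minus strand, and shares 25.2% of its exon bases with ATP6V1C2 on the other strand. ATP6V1C2, a subunit of the vacuolar proton pump, was at 310 ± 11.96 CPM against 372 ± 30.9 CPM (log2 fold change -0.26, edgeR unadjusted p = 0.0315). The strand setting of the counting is not given in the sources used here, so reads of such pairs cannot be told apart. CALR shares 270 exon bases with the other strand, where its largest partner AC092069.1 has 270 exon bases and 5513 to 7285 counts. How many counts of ATP6V1C2 come from reads of PDIA6 was not tested.

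DNAJB9, a co-chaperone of BiP and a target of XBP1, was at 10.3, 8.63 and 5.03 CPM against 7.995, 9.78 and 10.4 CPM. Control replicate 3 alone was low, with 58 counts, and the other 5 libraries overlapped (log2 fold change 0.23, SE 0.28). The other 8 chaperone members had log2 fold changes from -0.28 to 0.16 and edgeR adjusted p-values from 0.305 to 0.975. HSP90B1, the ER form of Hsp90, was the lowest of these at -0.28 (SE 0.13; adjusted p = 0.305). CALR, the lectin chaperone calreticulin, was at 2112 ± 23.3 CPM in Control and 2098 ± 256 CPM in ΔNSPs. Among PDIA4, HYOU1, CRELD2, DNAJC3, SDF2L1 and MANF the levels ran from 36.3 CPM (CRELD2 in Control replicate 1) to 321 CPM (PDIA4 in Control replicate 2).

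Ratios to HSPA5 within a library, on CPM per kilobase of exon, are given for PDIA6 and HSP90B1. Both were chosen after the values were seen, so their direction follows from that choice, and they were not tested. PDIA6 to HSPA5 was 1.33, 1.21 and 1.33 in the Control lines and 0.8998, 0.930 and 0.976 in the clones. HSP90B1 to HSPA5 was 0.822, 0.869 and 0.904 against 0.677, 0.667 and 0.644. In both ratios every clone was below every Control line.

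The 3 stress sensors had low levels and overlapping groups. ERN1, which encodes the kinase and RNase IRE1, was at 21.4, 18.4 and 16.3 CPM in Control and at 12.5, 13.9 and 18.2 CPM in ΔNSPs. Clone 3 lay among the Control lines and clones 1 and 2 below them (log2 fold change -0.33, SE 0.19; edgeR adjusted p = 0.385). ATF6, the sensor that is itself a transcription factor, was at 14.9, 15.2 and 14.1 CPM against 14.6, 20.4 and 20.3 CPM. Here clones 2 and 3 were above all Control lines and clone 1 among them (log2 fold change 0.32, SE 0.17; edgeR adjusted p = 0.357). EIF2AK3, which encodes PERK, was at 15.9, 17.2 and 12.7 CPM against 11.8, 15.5 and 15.4 CPM, with no order between the groups (log2 fold change -0.10, SE 0.19; edgeR adjusted p = 0.805). Clone 1 had the lowest ERN1 and EIF2AK3 of the 6 libraries.

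XBP1, whose spliced message encodes the factor that expands the secretory pathway, was at 243, 176 and 181 CPM in Control and at 242, 270.1 and 361 CPM in ΔNSPs. Control replicate 1 and clone 1 were at the same level, and the other 2 clones were above every Control line. The means were 291 ± 62.3 CPM against 200.3 ± 37.1 CPM, which is 0.54 on the log2 scale (SE 0.18; edgeR unadjusted p = 0.0186, adjusted p = 0.211; DESeq2 adjusted p = 0.0856). That value was 0.70 without Control replicate 1 and 0.36 without clone 3. Total XBP1 (ENSG00000100219; chr22:28794555-28800597, minus strand) includes spliced and unspliced message.

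Genes of ER-associated degradation, which carries misfolded proteins to the cytosol for breakdown, had values in both directions. Of 5 members 2 were higher and 1 lower with no overlap between the groups, where 23.9% of all genes had none. EDEM1, a mannosidase-like protein that targets misfolded glycoproteins, was at 167, 186 and 186 CPM in Control and at 127, 138 and 141 CPM in ΔNSPs. All clones were below all Control lines (135 ± 7.22 against 179.5 ± 11.2 CPM). The log2 fold change was -0.41 (SE 0.10; edgeR adjusted p = 0.171, DESeq2 adjusted p = 0.0275), with -0.46 to -0.37 when any library was left out. EDEM1 (ENSG00000134109) lies at chr3:5187646-5219957, plus strand. An antisense gene that shares 9.66% of its exon bases, AC026202.3, had a log2 fold change of -0.70 (edgeR unadjusted p = 0.0121).

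SYVN1, the ubiquitin ligase HRD1 of the degradation complex, was at 21.0, 24.1 and 26.5 CPM against 27.7, 31.3 and 29.2 CPM. The clones were above the Control lines by a small margin (log2 fold change 0.30, SE 0.13; edgeR adjusted p = 0.28). SYVN1 shares 8.39% of its exon bases on the same strand, with FAU (log2 fold change -0.05) as the largest partner. DERL2, a membrane component of the exit channel, was at 29.1, 26.5 and 28.5 CPM against 34.7, 34.9 and 32.1 CPM. It also showed no overlap (33.9 ± 1.53 against 28.1 ± 1.40 CPM; log2 fold change 0.27, SE 0.11; edgeR adjusted p = 0.253). The partner gene on the other strand, MIS12, had 0.32 (edgeR unadjusted p = 0.033). SEL1L, the adaptor that holds HRD1, was at 81.8 ± 9.39 CPM in ΔNSPs and 98.8 ± 12.9 CPM in Control (log2 fold change -0.27, edgeR adjusted p = 0.326). Per kilobase, SYVN1 to SEL1L was 0.416, 0.371 and 0.482 in Control and 0.675, 0.644 and 0.567 in ΔNSPs, a ratio also chosen after the values were seen. HERPUD1, a scaffold of the complex whose promoter held elements of both arms, was at 22.9 ± 2.77 CPM in Control and 29.4 ± 7.39 CPM in ΔNSPs, with clone 3 the highest library at 37.8 CPM (log2 fold change 0.36, SE 0.19; edgeR adjusted p = 0.36).

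**Figure D2:**
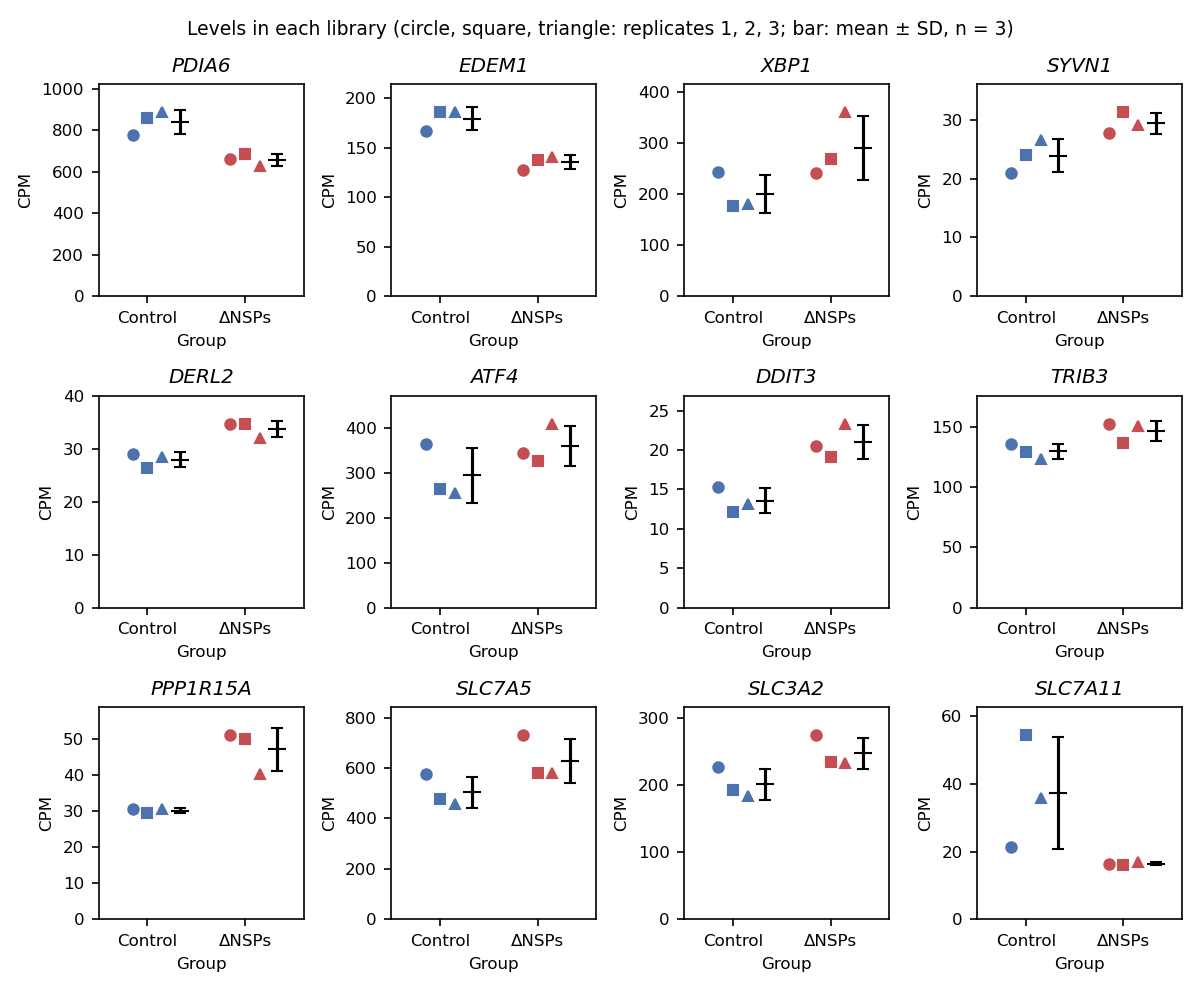
CPM of 12 members in each library (y axis from 0), by group on the x axis; circles, squares and triangles are replicates 1, 2 and 3, and the bar is the mean ± SD. PDIA6, EDEM1 and SLC7A11 lie below all Control lines in every clone, DDIT3 and PPP1R15A are higher, and XBP1 and ATF4 overlap through Control replicate 1.

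The stress regulators of the ATF4 arm included the 2 members with the highest log2 fold changes. PPP1R15A encodes GADD34, which brings a phosphatase to eIF2α and so restores translation. It was at 30.5, 29.3 and 30.5 CPM in the Control lines and at 51.0, 50.02 and 40.3 CPM in the clones. The Control lines lay close together and every clone was well above them (47.1 ± 5.92 against 30.1 ± 0.678 CPM). The log2 fold change was 0.65 (SE 0.12; edgeR adjusted p = 0.16, DESeq2 adjusted p = 0.00547). Without clone 1 it was 0.58, and there edgeR's adjusted p was 0.0431, the only call of a member in any fit that left out a library; in that fit 6.17% of all genes were called (3.04% higher and 3.13% lower). PPP1R15A (ENSG00000087074) lies at chr19:48872392-48876057, plus strand, and shares no exon base with another annotated gene.

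DDIT3, which encodes CHOP, a factor tied to cell death in prolonged stress, was at 15.3, 12.2 and 13.2 CPM in Control and at 20.5, 19.2 and 23.4 CPM in ΔNSPs. All clones were above all Control lines (21.0 ± 2.14 against 13.6 ± 1.61 CPM), from 152 to 287 counts a library. The log2 fold change was 0.63 (SE 0.15; edgeR adjusted p = 0.171, DESeq2 adjusted p = 0.0379), and 0.55 to 0.73 when any library was left out. DDIT3 (ENSG00000175197; chr12:57516588-57521737, minus strand) shares 39.6% of its exon bases with other genes, mainly MARS on the other strand. Per kilobase MARS, the methionyl-tRNA synthetase gene, averaged 29.8 CPM and DDIT3 13.2 CPM. MARS was at 240 ± 37.3 CPM against 179.7 ± 29.3 CPM (log2 fold change 0.41, edgeR unadjusted p = 0.0306). Whether some counts of DDIT3 come from MARS was not tested.

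ATF4 itself overlapped between the groups. It was at 365, 264 and 256 CPM in Control and at 345, 326 and 410.0 CPM in ΔNSPs, with Control replicate 1 above 2 of the 3 clones. The log2 fold change was 0.29 (SE 0.16; edgeR adjusted p = 0.374). It was 0.47 without Control replicate 1 and 0.19 without clone 3. Per kilobase, DDIT3 to ATF4 was 0.0809, 0.0889 and 0.0992 in Control and 0.114, 0.113 and 0.1096 in ΔNSPs (chosen after the values were seen).

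TRIB3, a pseudokinase that restrains ATF4 and CHOP, was at 136, 129.7 and 124 CPM against 153, 137 and 151 CPM. Its groups did not overlap, but Control replicate 1 and clone 2 almost met (log2 fold change 0.18, SE 0.10; edgeR adjusted p = 0.365). CHAC1, a glutathione-degrading enzyme and one of the most stress-responsive ATF4 targets, was at 2.22, 1.23 and 1.56 CPM against 1.499, 2.20 and 1.27 CPM, from 15 to 29 counts a library. It was detectable in every library and showed no order of the groups (log2 fold change -0.01, SE 0.38). At these counts the SE is the largest among the members. SESN2, a sestrin that holds back mTORC1, and CEBPG, a partner of ATF4, differed by -0.22 (SE 0.20) and -0.09 (SE 0.13) on the log2 scale, with edgeR adjusted p-values of 0.598 and 0.722.

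Of the 3 amino acid transporters 2 were higher and 1 lower in every clone, where 12.2% of all genes were higher and 11.7% lower in this way; the role as a group was not tested. SLC7A5 encodes LAT1, which imports leucine and other large neutral amino acids. It was at 574, 477 and 459 CPM in Control and at 731, 579 and 579 CPM in ΔNSPs. Clone 1 was the highest library, and the other 2 clones were just above Control replicate 1 (log2 fold change 0.32, SE 0.14; edgeR unadjusted p = 0.0447, adjusted p = 0.276; 0.20 without clone 1). An antisense gene that shares 5.71% of the SLC7A5 exon bases, AC126696.2, had a log2 fold change of 0.36 (edgeR unadjusted p = 0.022). SLC3A2 encodes CD98hc, the heavy chain that LAT1 and xCT need at the cell surface. It was at 227, 192 and 183 CPM against 274, 234 and 233 CPM, in the same order of libraries as SLC7A5 but for the 2 lower clones (log2 fold change 0.30, SE 0.12; edgeR unadjusted p = 0.0375, adjusted p = 0.258). Per kilobase, SLC7A5 to SLC3A2 stayed between 2.70 and 2.91 in all 6 libraries.

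SLC7A11, the xCT subunit that imports cystine for glutathione synthesis, was at 21.4, 54.5 and 35.7 CPM in Control and at 16.4, 16.1 and 16.9 CPM in ΔNSPs. The clones were almost equal, the Control lines spread over a wide range, and Control replicate 1 was the nearest to the clones. The means were 16.5 ± 0.401 CPM against 37.2 ± 16.6 CPM, and the log2 fold change was -1.18 (SE 0.30; edgeR adjusted p = 0.171, DESeq2 adjusted p = 0.00542). Leaving out Control replicate 2 gave -0.80 and leaving out Control replicate 1 gave -1.46. Per kilobase, SLC7A11 to SLC3A2 was 0.0507, 0.152 and 0.105 in Control and 0.0322, 0.0368 and 0.0389 in ΔNSPs. SLC7A11 was already lower and SLC3A2 already higher in every clone, so the direction of this ratio follows from them. SLC7A11 (ENSG00000151012) lies at chr4:138164097-138242349, minus strand. SLC7A11-AS1, on the other strand, shares 8.97% of the SLC7A11 exon bases. It had 34, 96 and 57 counts in Control and 20, 21 and 22 counts in ΔNSPs, in the same order of Control lines. How many of these counts come from reads of SLC7A11 was not tested. In bulk RNA, fewer cells that express a gene and less RNA per cell cannot be told apart.

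Enzymes of serine and one-carbon metabolism differed by less than the spread between libraries. All 5 tested members had log2 fold changes between -0.15 and 0.17, and edgeR adjusted p-values from 0.512 to 0.987. PHGDH, PSAT1 and PSPH, the 3 steps from glycolysis to serine, differed by -0.15 (SE 0.11), 0.17 (SE 0.19) and -0.01 (SE 0.20) on the log2 scale. PSAT1 varied most among the Control lines, at 256, 175 and 147 CPM, and little among the clones, at 217, 209 and 225 CPM. SHMT2 and MTHFD2, which carry serine carbon into mitochondrial folate metabolism, had 0.01 (SE 0.13) and -0.05 (SE 0.11). Of these 5 genes, 4 had Control replicate 1 nearer to the mean of the clones than to the mean of the other 2 Control lines, against 46.9% of all genes.

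ASNS, asparagine synthetase and a standard target of ATF4, was listed with 13, 5 and 4 counts in Control and 5, 4 and 10 counts in ΔNSPs, 0.303 to 1.11 CPM. That is the lowest level of the 40 members per kilobase. ASNS (ENSG00000070669; chr7:97852118-97872542, minus strand) shares 96.1% of its coding bases (1683 of 1752) on the same strand with AC079781.5. That annotated gene has a longer span (chr7:97851688-97972985) and had 1 to 20 counts a library. Whether reads that fall in both genes were dropped is not given in the sources used here, so these counts give no measure of the ASNS level.

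The 4 aminoacyl-tRNA synthetases, which charge tRNAs and are induced by ATF4, had small differences. AARS, GARS, WARS and SARS (now AARS1, GARS1, WARS1 and SARS1) had log2 fold changes of -0.15, 0.11, 0.12 and 0.03, and edgeR adjusted p-values from 0.475 to 0.903. WARS, also induced by interferon, was highest in clone 2 at 92.5 CPM, against 63.8 to 73.2 CPM in the other 5 libraries. Of 8 further synthetases taken as a reference, 0 were called by edgeR or DESeq2 and 0 had an unadjusted edgeR p under 0.05. Their median log2 fold change was 0.097. The 4 with the smallest p among them were DARS (-0.30), FARSA (0.29), HARS (0.22) and VARS (0.22), again in both directions. Other synthetases belong to a further list of ATF4 pathway genes, summarised below. Of those, TARS had 0.51 and MARS 0.41 (edgeR unadjusted p = 0.0574 and 0.0306). CARS, EPRS, IARS, LARS, NARS and YARS ran from -0.09 (LARS) to 0.16 (CARS).

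Set side by side, the arms showed different libraries at their extremes. The median log2 level of the 20 ER members, relative to the mean of the 6 libraries and with 0.5 CPM added, was -0.011, 0.057 and -0.014 in Control and -0.12, 0.096 and 0.059 in ΔNSPs. Clone 1 was the lowest library and clone 2 the highest, so the clones enclosed the Control lines. For the 19 tested ATF4 members the medians were 0.14, -0.099 and -0.097 in Control and 0.10, 0.014 and 0.030 in ΔNSPs. Control replicate 1 was the highest library there, above all clones, and the other 2 Control lines the lowest. Over all genes these medians stayed between 0.0064 and 0.0099. The median log2 fold changes were 0.025 (ER arm, from -0.41 to 0.54) and 0.029 (ATF4 arm, from -1.18 to 0.65). Groups did not overlap for 2 higher and 2 lower ER members and for 5 higher and 1 lower ATF4 members, where 12.2% of all genes were higher and 11.7% lower in this way. Control replicate 1 was nearer to the clones than to the other Control lines for 8 of 20 ER and 12 of 19 ATF4 members. That is 40% and 63.2%, and 51.3% of both arms together, against 46.9% of all genes. The ATF4 median was 0.16 without Control replicate 1 and 0.13 without clone 3. No test of these scores was made.

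**Figure D3:**
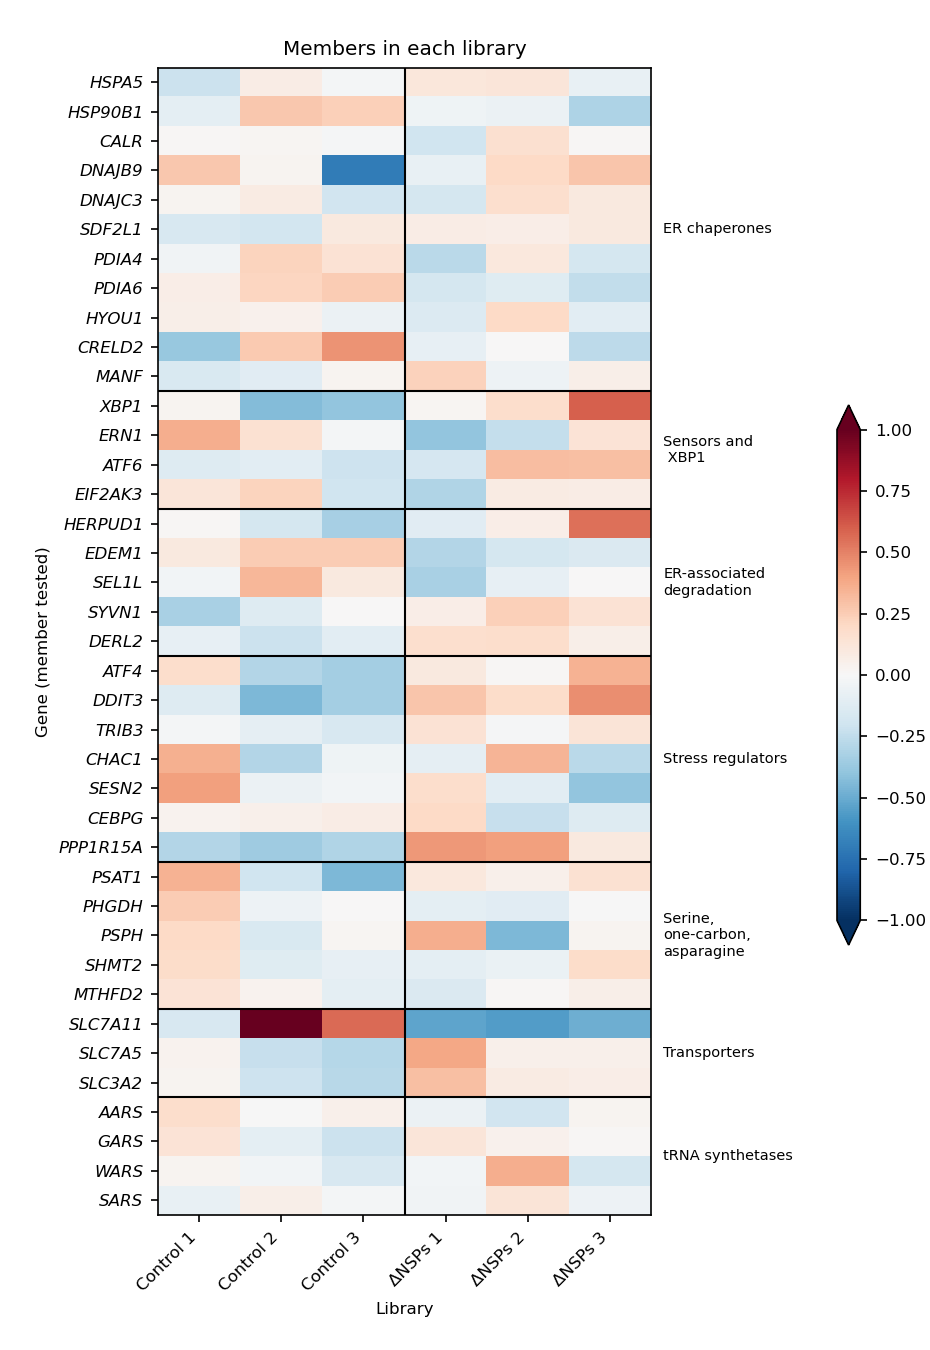
Log2 CPM of each tested member (rows, by role) in each library (columns), relative to the mean of the member over the 6 libraries, in red where higher and in blue where lower. SLC7A11 is darkest in Control replicates 2 and 3, PPP1R15A and DDIT3 are blue in all Control lines and red in all clones, and the enzyme and synthetase rows show no block by group.

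The promoter elements did not separate the members by direction. Of the 6 ER members with the ER stress response element, 2 had positive and 4 negative log2 fold changes, from -0.36 (PDIA6) to 0.54 (XBP1), so the 3 sequences shown for HSPA5, PDIA6 and XBP1 belong to genes with unlike values. The 3 with ERSE-II ran from -0.02 (HYOU1) to 0.36 (HERPUD1). Of the 5 tested ATF4 members with the ATF4 element, 2 were positive and 3 negative, from -0.15 (AARS) to 0.30 (SLC3A2). DDIT3 and PPP1R15A held none of the 4 motifs in their windows, which says only that these letters are not there. No promoter of SLC7A11, PSPH, SHMT2 or NUPR1 was examined.

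The order of the members by CPM per kilobase of annotated exon was led by the chaperones. CALR was first at 776 CPM per kilobase on average, followed by PDIA6 (183), HSPA5 (166), ATF4 (130.3) and HSP90B1 (126). CALR was above all others in every library, while the lowest-to-highest ranges of PDIA6, HSPA5, ATF4 and HSP90B1 each overlapped the next. The sensors stood near the end, with EIF2AK3 at 2.72, ATF6 at 2.10 and ERN1 at 1.55, and their ranges also overlapped in that order. CHAC1 (0.808) and ASNS (0.124) were last, the latter with the limit on its counts given above.

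**Figure D4:**
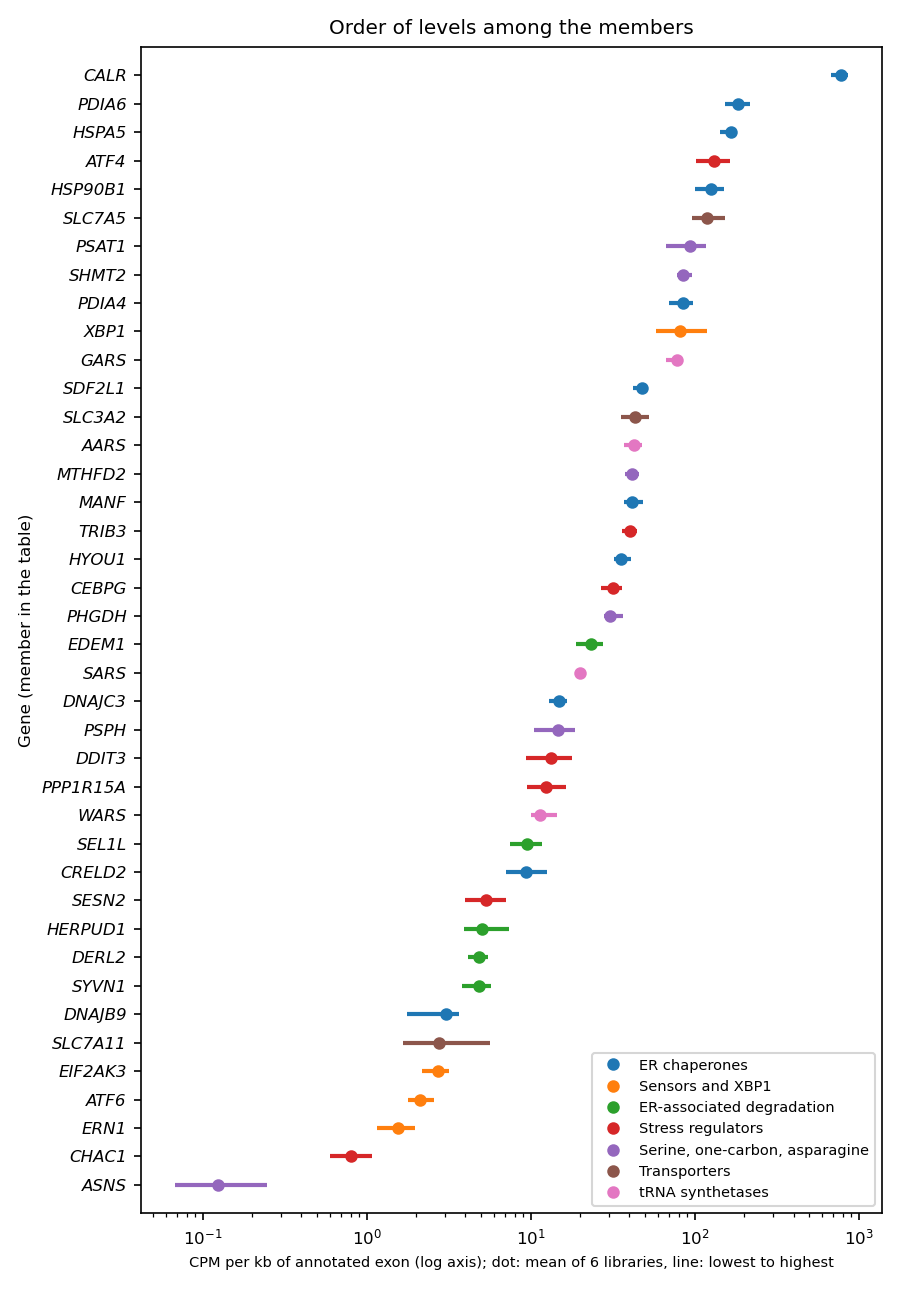
CPM per kilobase of annotated exon (log axis) of the 40 members; the dot is the mean of the 6 libraries, the line runs from the lowest to the highest library, and colours mark the role. CALR leads at 776, the 3 sensors lie between 1.55 and 2.72, and ASNS is last.

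Other genes of the same pathways were read from 2 further lists. Of 46 other ER genes 44 were tested, and 0 were called by edgeR. At an unadjusted p under 0.05, 2 were higher and 11 lower, where 9.23% of all genes were higher and 8.6% lower. DESeq2 called 0 higher and 4 lower, against 1.91% and 2.07% of all genes. Groups did not overlap for 5 higher and 12 lower genes (38.6%), against 12.2% and 11.7% of all genes. The median log2 fold change was -0.066. P4HB, protein disulfide isomerase and the most abundant of those named, was at 2234, 2519 and 2908 CPM in Control and at 1665, 1770.3 and 1789 CPM in ΔNSPs, with no overlap (log2 fold change -0.55, SE 0.12; edgeR adjusted p = 0.16, DESeq2 adjusted p = 0.00442). PDIA5, of the same family, was at 32.999 ± 4.31 against 50.9 ± 5.43 CPM (log2 fold change -0.63, DESeq2 adjusted p = 0.0121). P4HB shares 9.98% of its exon bases, with AC145207.3 on the other strand as the largest partner. PDIA5 shares 14.3% of its exon bases on the same strand, with SEC22A as the largest partner. LMAN1, a cargo receptor for export from the ER, was at 167 ± 11.03 against 241 ± 31.6 CPM (log2 fold change -0.53, DESeq2 adjusted p = 0.0141). ERLEC1, a lectin of ER-associated degradation, was at 50.5 ± 4.36 against 67.5 ± 4.26 CPM (log2 fold change -0.42, DESeq2 adjusted p = 0.0601).

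Of 39 other genes of the ATF4 pathway 35 were tested, and 0 were called by edgeR. At an unadjusted p under 0.05, 3 were higher and 4 lower, 20% of them and near the 17.8% of all genes. DESeq2 called 1 higher and 2 lower of 33, where it called 3.98% of all genes. The median log2 fold change was -0.035. CEBPB, a transcription factor that pairs with ATF4 and also acts in myeloid cells, was at 64.4, 75.0 and 75.8 CPM in Control and at 81.5, 213 and 174 CPM in ΔNSPs (log2 fold change 1.12, SE 0.31; DESeq2 adjusted p = 0.00637). Clones 2 and 3 carried most of that difference, and clone 1 was just above the Control lines. DDIT4, an inhibitor of mTORC1 that also responds to hypoxia, was at 20.9 ± 6.10 against 43.6 ± 11.2 CPM (log2 fold change -1.06, DESeq2 adjusted p = 0.00341), and 41.2% of its exon bases are shared, mainly with DDIT4-AS1 on the other strand. EIF2AK4, which encodes GCN2, the kinase that senses uncharged tRNA, was at 51.1 ± 6.52 against 75.5 ± 4.52 CPM (log2 fold change -0.56, DESeq2 adjusted p = 0.0128). CTH, the enzyme that makes cysteine from cystathionine, was at 5.43 ± 0.434 against 8.77 ± 0.604 CPM (log2 fold change -0.69, DESeq2 adjusted p = 0.0827). SLC1A5, a glutamine transporter and the most abundant gene of the list, was at 506 ± 44.1 against 498 ± 16.1 CPM.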

How the data were processed

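RNA-seq libraries of 3 Control lines and 3 ΔNSPs clones of U937 were compared, grouped by the sample labels. The values deposited by the authors are whole-number read counts by Ensembl identifier, not normalized. HISAT2 2.0.0, SAMtools 1.5.9, HTSeq 0.11.1, FastQC and the GRCh38.p12 build are named in the submitters' processing notes. Strand setting, gene annotation and filters are not given there. No gene had fewer than 10 counts in all. Symbols, positions and exon lengths came from GENCODE v29, which matched 18771 of 18798 genes.

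EdgeR 4.0.16 (R 4.3.3) with TMM scaling, the filterByExpr filter and quasi-likelihood fits gave the main test, two-sided, with Benjamini-Hochberg adjustment over 14797 genes at 0.05. CPM used the TMM-scaled totals of the tested genes. Errors are SD over 3 libraries. DESeq2 1.42.0, limma 3.58.1 (voom with quality weights), other size factors, no filter, the replicate number as a block, and leaving out each library were alternatives. Tested on simulated data of 14533 genes, the edgeR fit found 65% of the 2-fold and 95% of the 4-fold changes. Of its calls there 5.33% were false. The simulated counts were drawn with a fitted spread for each gene, and the changed genes all had over 2 CPM. These shares may therefore not hold for the real clones. Of the 3 proteases, edgeR called CTSG (log2 fold change -4.61) but not ELANE (-5.56) or PRTN3 (-2.96).

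The members and lists were chosen with earlier results of these data known. Values of every library are given for the 3 sensors, XBP1, ATF4, DDIT3 and HSPA5, and for members with an unadjusted edgeR p or a DESeq2 adjusted p under 0.05, groups that do not overlap, or a highest library at least 2 times the lowest. From each further list, up to 4 genes with the smallest p and the gene with the highest mean CPM are named where a value bears on the members. Some other folding genes and synthetases of these lists are named beside the members for comparison. The labels call the clones independent and the Control samples separate lines, but give no batch or date. The p-values set the difference between the groups against the spread of these libraries within each group. Replicate numbers did not pair the libraries (correlations of deviations between same-numbered libraries from -0.43 to -0.14). Differently numbered libraries did share deviations. Control replicate 1 correlated with clones 2 and 3 at 0.26 and 0.22, and Control replicates 2 and 3 with clone 1 at 0.27 and 0.29. Control replicate 2 with clone 3 and Control replicate 3 with clone 2 were at -0.14 and -0.18. The cause was not tested.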

Additional observations from a re-analysis of the deposited data

How the results depend on the processing

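Over all genes edgeR called 3 genes, DESeq2 515, limma 2, and the fit without a filter 4. With the replicate block, which has no basis in pairing, it called 0 (1779 at an unadjusted p under 0.05) and 0 members of either arm. Leaving out single libraries gave 0 to 928 calls, with 928 without ΔNSPs clone 1, 20 without Control replicate 1 and 0 without Control replicate 2 or 3. Members called were 2 (ER arm) and 3 (ATF4 arm) in DESeq2, and 0 to 1 in the ATF4 arm when a library was left out; the ER arm stayed at 0 there. The ATF4 median ran from 0.0058 (without Control replicate 3) to 0.16 (without Control replicate 1), and the ER median from -0.054 to 0.070 and so changed sign. Of 39 members 28 kept their sign in all 12 alternatives. The 11 others had log2 fold changes of at most 0.23 in size. The sign turned in limma for CALR (0.015), CHAC1 (0.089) and HYOU1 (6.7e-05), and with upper quartile scaling for SHMT2 (-0.0028). With a library left out the ranges were -0.095 to 0.072 for CALR, -0.26 to 0.25 for CHAC1, -0.015 to 0.45 for DNAJB9, -0.020 to 0.15 for DNAJC3, -0.22 to 0.012 for EIF2AK3, -0.13 to 0.033 for HYOU1, -0.11 to 0.0048 for MTHFD2, -0.23 to 0.18 for PSPH, -0.029 to 0.063 for SARS, -0.079 to 0.11 for SHMT2 and -0.046 to 0.23 for WARS. The cause was not tested. CHAC1 had 15 to 29 counts a library and the largest SE of the members; ASNS was not tested.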
